A study of Mus musculus with 12 samples.

Results

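Spheres made from cultured mouse astrocytes (A-iSCs) were compared with a cell suspension prepared from the adult subependymal zone (P56-NPCs), gene by gene, by RNA sequencing. All genes whose mean level was at least 1 FPKM in A-iSCs or in P56-NPCs were taken, which gave 15044 of the 55862 genes in the table. FPKM counts the sequenced fragments of a gene per kilobase of its length, scaled to the size of the library, so that levels of different genes can be set side by side. The rule does not use the difference between the groups. Of the genes taken, 12025 reached 1 FPKM in both groups, 1182 in A-iSCs only and 1837 in P56-NPCs only. At the edge of the rule, Gm24950 was just inside with 1.0 FPKM and 2310016G11Rik just outside with 0.9997 FPKM in the higher group.

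The series held 4 groups of 3 samples, all from C57BL/6 mice, and no label names a transgene or a mutation. A-iSCs were astrocytes (AST) from the cortex of newborn mice, first grown in serum on flat dishes and then kept for 5 days on agarose, to which they do not attach. P56-NPCs were dissociated subependymal tissue of C57BL/6J mice at postnatal day 56, and they served the study as a positive control for neural precursor cells. Their cells were resuspended in a culture medium with B27, and the paper does not state the time from there to RNA isolation. AST on day 0 and a P0-NPC suspension of newborn hippocampus are given below only as levels. The paper describes no sorting step between the adult tissue and the RNA, so a P56-NPC sample can hold whatever cells the dissection and the centrifugations left. The A-iSCs come from a primary culture and not from a single clone. The paper names 3 independent experiments for its results in general. For the sequenced samples, the sources used here do not say whether the 3 of a group were separate cultures or separate mice. The p-values below therefore measure the spread between these samples, which may be technical.

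The subependymal zone lines the lateral ventricle. Its stem cells resemble astrocytes and give rise to dividing progenitors and migrating neuroblasts, and they lie between ependymal cells, white matter and striatum. Astrocytes take up glutamate and potassium around synapses, and after injury they enlarge and raise intermediate filaments and secreted defence proteins. Cultures of newborn cortex commonly carry some microglia, the resident phagocytes of the brain.

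The A-iSCs samples held 18288177 to 23769070 counted fragments and the P56-NPC samples 21380187 to 22285109, so depth differed little between the groups. Genes of the mitochondrial genome took 7.03%, 5.49% and 3.05% of the fragments in A-iSCs samples 1, 2 and 3, and 16.54% to 17.63% in P56-NPCs. A limit of 3 fragments corresponds to 0.112 to 0.187 FPKM for a transcript of 1 kilobase in these 6 samples, by counting error alone. A-iSCs sample 3 stood apart from samples 1 and 2. The chi-square statistic per degree of freedom between its fragments and theirs was 95.14 and 75.46, against 12.28 between samples 1 and 2 and 6.34 to 14.84 among P56-NPCs. It held less Actb, with 356 FPKM against 884 and 777 FPKM, and more Gfap, with 1482.8 FPKM against 658 and 769 FPKM.

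Of the 15044 genes, 9175 or 61% were called at an adjusted p under 0.05 in limma's moderated test on log2(FPKM + 1). Among them 4532 were higher in A-iSCs, which is 30.1% of those tested, and 4643 were lower, which is 30.9%. A difference on this scale understates the change of genes near or under 1 FPKM. A gene under 1 FPKM in either group was tested only because its mean was higher in the other, so counts and medians of lists with such genes are given as descriptions. Beyond 1 unit in size, 1473 genes were higher (9.79%) and 2506 lower (16.7%). Beyond 3 units, 141 were higher and 346 lower, so the largest differences lay mostly on the P56-NPC side. In 5218 genes (34.7%) every A-iSCs sample lay above every P56-NPC sample, and in 5081 (33.8%) every one lay below. The median difference over all genes was 0.03 and the median size 0.54. The split depended on the scaling. The deposited FPKM values rest on scaled library totals that were 1.102 to 1.148 times the counted fragments in A-iSCs and 0.744 to 0.779 times in P56-NPCs. With the counted totals in their place the differences moved up by a median of 0.44, and 8170 genes were higher (54.3%) and 3008 lower (20%). The share of calls on the A-iSCs side was then 73.1% in place of 49.4%. Both scalings called 7540 genes in the same direction and 20 in opposite directions. Calls can therefore depend on the scaling, also for some differences well beyond that shift, such as that of the tubulin gene Tubb3 (-1.03). Without A-iSCs sample 3, which stood apart, 5592 genes were higher and 5553 lower.

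**Figure D1:**
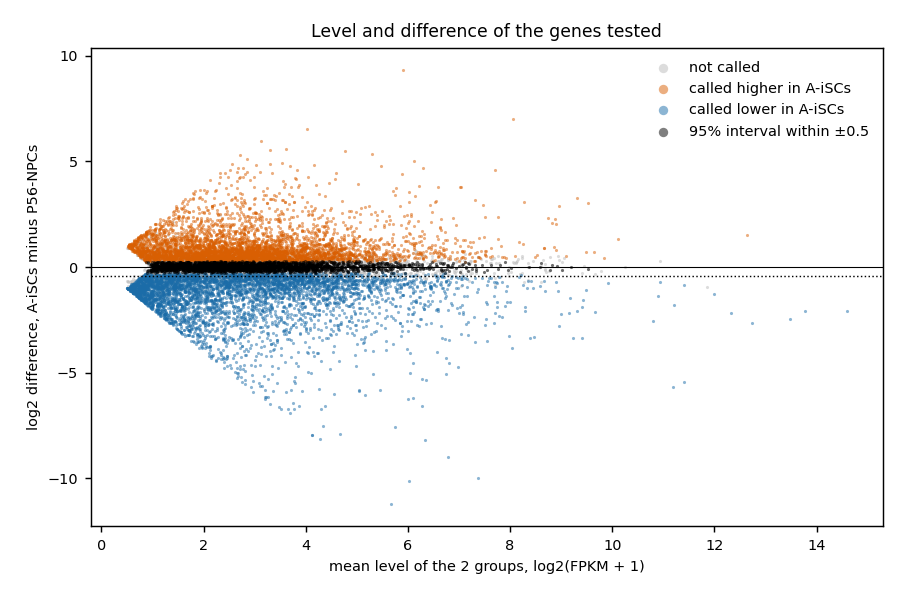
Each point is 1 of the 15044 genes, with the mean of both groups' levels as log2(FPKM + 1) on the horizontal axis and the log2 difference, A-iSCs minus P56-NPCs, on the vertical axis, in orange where called higher, blue where lower, grey where neither and black where the 95% interval lies within 0.5 of 0. The dotted line marks where 0 would lie under scaling by counted fragments, 0.44 below the solid line, and 346 called points lie below -3 against 141 above 3.

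The protein-coding gene with the largest difference in favour of A-iSCs was Spp1, which encodes osteopontin, a secreted phosphoprotein of phagocytes and bone (chromosome 5, 104435118 to 104441050, plus strand, GRCm38). It measured 1847.2, 1478.4 and 1242.5 FPKM in A-iSCs samples 1 to 3 and 1.15, 1.06 and 1.81 FPKM in P56-NPCs. The means differed 1137-fold, and the log2 difference was 9.34 ± 0.18 (SE, n = 3 and 3) with an adjusted p of 1.18e-07 from limma. Lyz2, the lysozyme of macrophages and microglia, was at 3672.1, 2723.9 and 2474.7 FPKM against 20.1, 15.2 and 34.5 FPKM. Its lowest A-iSCs sample thus lay far above its highest P56-NPC sample. Gpnmb, a glycoprotein of lipid-laden phagocytes, had means of 155 and 0.701 FPKM, and Lgals3, or galectin-3, of 240 and 5.35 FPKM. The same set of 12 genes held the interferon-induced genes Isg15, Bst2 and Irf7, the chemokine gene Ccl5, the matrix gene Fn1 (fibronectin), the protease inhibitor gene Timp1, and Ripply1, a transcriptional corepressor known from somite formation. Ripply1 was at 47.8, 71.8 and 84.4 FPKM against 0.0749 to 0.142 FPKM, and its mean was 0.177 FPKM in AST and 0.14 FPKM in P0-NPCs. The last of the 12, Elobl, had no fragment in any P56-NPC sample and 60.3, 42.7 and 21.5 FPKM in A-iSCs, at least 191-fold higher when 3 fragments per library are taken as the limit. Elobl resembles elongin B, and how the counting divided reads between such copies is not given in the sources used here, so its level is uncertain.

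On the other side, many of the genes belong to the myelin sheath. Mobp was at 2419.6, 2394.3 and 2703.9 FPKM in P56-NPCs and between 0.043 and 0.049 FPKM in A-iSCs, with a log2 difference of -11.23 ± 0.09 and an adjusted p of 1.26e-08. Mbp, myelin basic protein, had means of 5270.9 and 4.23 FPKM. Mog, Mag and Mal also encode proteins of myelin, and their P56-NPC means ran from 271 to 741 FPKM. Ttr, the thyroxine carrier that the choroid plexus secretes, was at 2076.8, 1451.6 and 3119.7 FPKM against 0.46, 1.56 and 0.755 FPKM. The 3 P56-NPC samples differed among themselves for Ttr more than for myelin, yet none came near the A-iSCs. Neuronal genes made up 4 more, namely Kif5a, the axonal kinesin heavy chain (1385.8 against 3.69 FPKM), Camk2a, a synaptic kinase (391 against 0.66 FPKM), Ddn, or dendrin (323 against 0.149 FPKM), and Hpcal4, a calcium sensor (142 against 0.182 FPKM). The haemoglobin gene Hba-a1 was at 275 ± 69.0 FPKM (SD, n = 3) in P56-NPCs, and at 0.306, 0.0 and 0.0 FPKM in A-iSCs. Exons of Ddn, Fn1, Irf7, Mobp and Spp1 overlap exons of another annotated gene, and strand use in the counting was not stated, so some of their reads may belong to the neighbour.

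**Figure D2:**
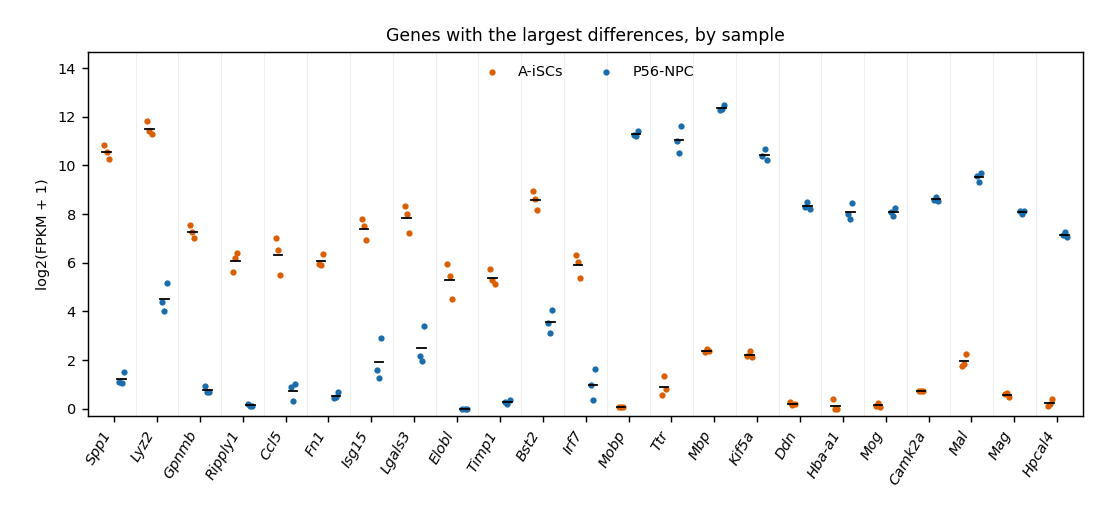
Protein-coding genes with the largest differences, 12 higher and 11 lower in A-iSCs, with the 3 A-iSCs samples in orange, the 3 P56-NPC samples in blue and the group mean as a bar, as log2(FPKM + 1). In all 23 genes the groups lie apart, from Spp1 at 1242.5 to 1847.2 FPKM in A-iSCs to Mobp at 2394.3 to 2703.9 FPKM in P56-NPCs.

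The differences were then read by 38 gene lists of cell types and functions. The list medians ran from -7.07 for mature oligodendrocytes to 3.79 for the interferon response, beside 0.03 over all genes. A member outside the 15044 genes is counted as not tested. In such bulk samples a lower level can come from fewer cells of a type or from less RNA per cell, and these cannot be told apart.

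**Figure D3:**
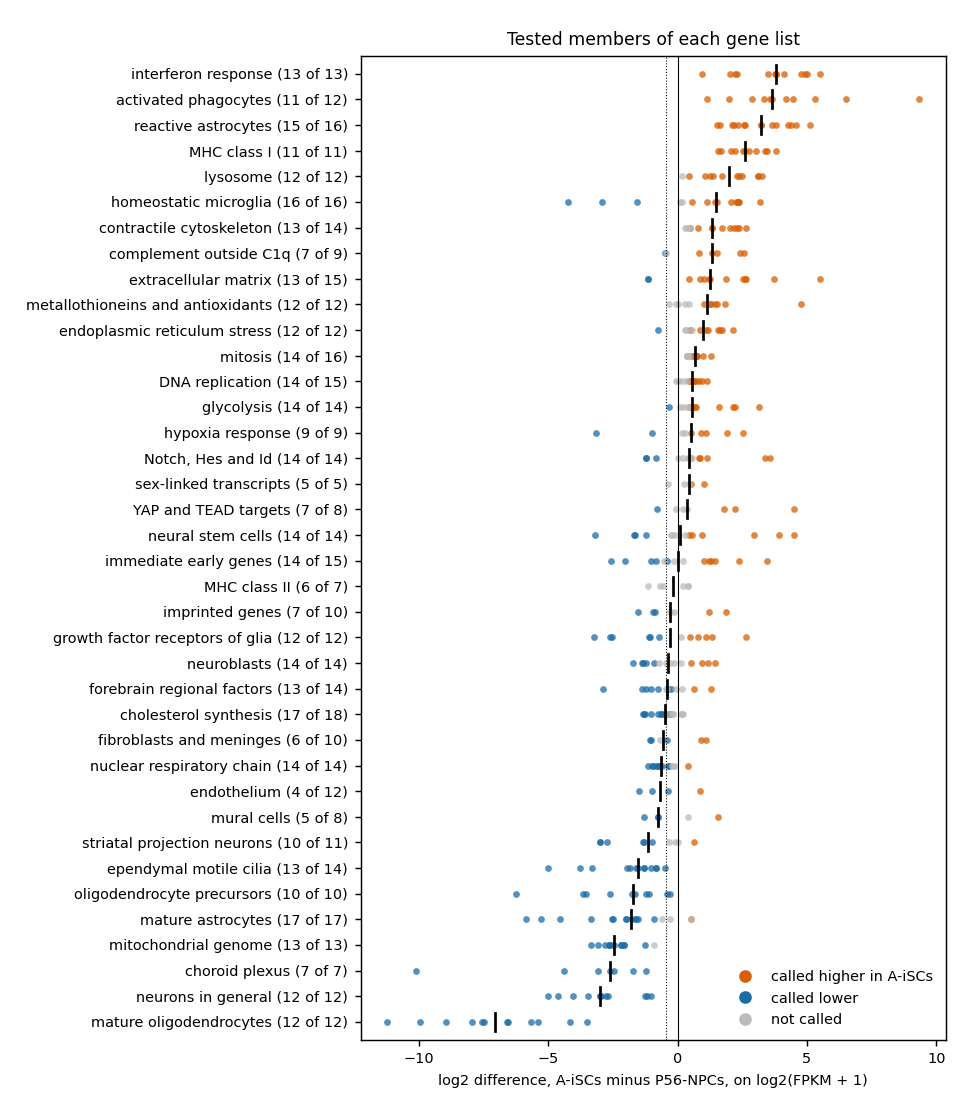
Each row is a gene list, with the number of members tested of those listed, sorted by the median log2 difference (black bar), with members as points, orange where called higher in A-iSCs, blue where lower and grey where not called, and a dotted line at -0.44, where 0 would lie by counted totals. Interferon, activated phagocyte, reactive astrocyte and MHC class I members lie to the right of 0 without exception, and mature oligodendrocyte, neuronal, choroid plexus and ependymal members to the left. A member with a mean under 1 FPKM in either group was tested only through the other, which fixes its side.

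Genes of microglia divided into a high and a low set. Of 16 homeostatic microglia genes, all tested, 11 were higher in A-iSCs, 3 lower and 2 not called (median 1.47). The complement gene C1qa was at 1248.4, 948 and 891 FPKM in A-iSCs against 218, 196 and 226 FPKM in P56-NPCs, a log2 difference of 2.25 ± 0.16 with an adjusted p of 2.38e-05. Tyrobp, the signalling adaptor of microglial receptors, was at 584, 472 and 385 FPKM against 49.8 to 52.3 FPKM. C1qb was at 723 to 1146.9 FPKM against 178 to 205 FPKM, and Ctss, a lysosomal protease, had means of 978 and 234 FPKM. In these genes every A-iSCs sample was above every P56-NPC sample. Csf1r, the receptor on which microglia depend, had means of 87.5 ± 15.3 and 76.2 ± 1.72 FPKM and overlapped. Its adjusted p was 0.286, but with counted totals it was called higher, by 0.73. The genes that were lower are the ones that mark resting microglia of intact brain. P2ry12, a purinergic receptor of microglial processes, measured 7.19, 5.48 and 9.23 FPKM in A-iSCs against 60.3, 60 and 60.3 FPKM, a log2 difference of -2.91 ± 0.17 (adjusted p = 8.61e-06). Siglech was at 0.0733, 0.0 and 0.0441 FPKM against 18.6, 19.2 and 17.6 FPKM, and Tmem119 at 15.3 to 18.4 FPKM against 49.5 to 54.2 FPKM. For P2ry12, Siglech and Tmem119 no A-iSCs sample reached any P56-NPC sample.

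Genes of activated phagocytes were higher without exception among the 11 of 12 members tested (median 3.64). Gpnmb, Lpl and some other members had means under 1 FPKM in P56-NPCs and were tested only through A-iSCs, which fixes their direction. Spp1, Lgals3, Cd68, Clec7a and Cd63 reached 1 FPKM in both groups. Besides Spp1, Gpnmb and Lgals3, the lysosomal glycoprotein gene Cd68 was at 311, 233 and 140 FPKM against 16.4 to 19.6 FPKM. Clec7a, the receptor dectin-1, was at 41.6 to 49.2 FPKM against 1.02 to 1.33 FPKM, and the lipoprotein lipase gene Lpl had means of 26.9 and 0.502 FPKM. Cd63, a membrane protein of late endosomes, was at 216 to 278 FPKM against 57.1 to 63.4 FPKM. Itgax, the untested member, was at 0.758 and 0.319 FPKM. A-iSCs sample 3 was the lowest of its group for both Cd68 and Lgals3, with 148 FPKM of Lgals3 against 318 and 254 FPKM in the others. The summed level of the 16 homeostatic genes was 4219.8 to 5444.4 FPKM in A-iSCs and 1263.9 to 1353.4 FPKM in P56-NPCs, beside 383 to 458 FPKM in AST and 215 to 265 FPKM in P0-NPCs. The A-iSCs are labelled by their astrocyte origin, and microglial genes at this level stand against reading them as astrocytes alone.

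**Figure D4:**
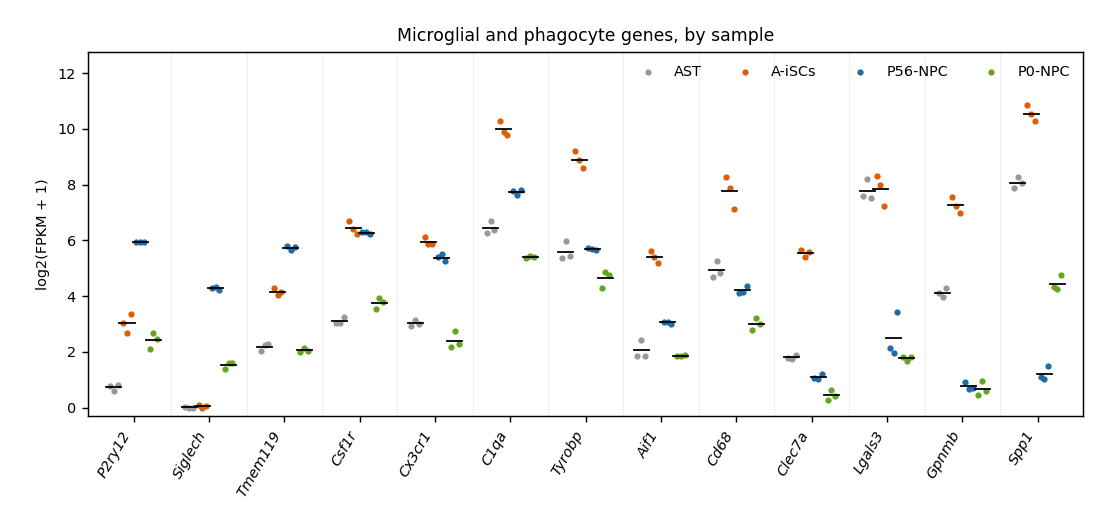
Levels of 13 microglial and phagocyte genes as log2(FPKM + 1), with 3 samples and their mean bar for AST (grey), A-iSCs (orange), P56-NPCs (blue) and P0-NPCs (green). From P2ry12 to Tmem119 P56-NPCs lie highest, Csf1r overlaps between A-iSCs and P56-NPCs, and from C1qa to Spp1 A-iSCs lie above P56-NPCs.

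Genes of the oligodendrocyte line were far higher in P56-NPCs. All 12 mature oligodendrocyte genes were lower in A-iSCs (median -7.07), and their summed level was 64.2 to 88.9 FPKM against 12371.1 to 14262.4 FPKM. Mobp, Mog, Mag and some other members had means under 1 FPKM in A-iSCs, so the filter fixed their direction. The 5 myelin genes Mbp, Mobp, Mog, Mag and Cnp alone took 4.74% to 5.43% of all fragments in P56-NPCs and 0.0223% to 0.0319% in A-iSCs. The P56-NPC samples are labelled as neural precursor cells, and genes of mature oligodendrocytes at this level stand against reading them as precursors alone. The least different member was Cnp, a myelin-associated phosphodiesterase, at 45.3, 51.4 and 67.5 FPKM against 580 to 670 FPKM. All 10 genes of oligodendrocyte precursors were lower as well, with a smaller median of -1.71. Olig1, a factor that sets the oligodendrocyte line, remained at 113, 89.2 and 99.1 FPKM in A-iSCs against 335 to 352 FPKM, and Olig2 at 32.7 to 38.7 FPKM against 75.2 to 81.8 FPKM. Bcas1, a gene of newly myelinating cells, differed most on the log2(FPKM + 1) scale (6.33 against 555 FPKM). Of these 10 genes, Lhfpl3 and Vcan differed by less than the scaling shift (-0.30 and -0.43), and with counted totals Lhfpl3 was called the other way, at 0.23. The call of Lhfpl3 was also lost without A-iSCs sample 2 or any 1 P56-NPC sample.

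Neuronal genes were lower in A-iSCs in all 12 of 12 members (median -2.99). Snap25, Nefl and some other members had means under 1 FPKM in A-iSCs and were tested only through P56-NPCs, which fixes their direction. Map2 and Tubb3 reached 1 FPKM in both groups. Snap25, a synaptic vesicle fusion protein, was at 0.577, 0.328 and 0.269 FPKM against 34.4, 36.3 and 30.4 FPKM (log2 difference -4.64 ± 0.12, adjusted p = 3.43e-07). Tubb3, the tubulin used as the Tuj1 antigen, differed least, with 27.3 to 46.3 FPKM against 69.9 to 85.0 FPKM, and with counted totals its call was lost. Nefl, the light neurofilament chain, differed most on the log2(FPKM + 1) scale, at 0.0294 to 0.143 FPKM against 28.3 to 40.6 FPKM. Map2 was at 7.51, 8.13 and 14.1 FPKM against 63.7 to 77.9 FPKM. In a group of 8 genes whose mRNA is known to travel into dendrites, chosen after their values were seen, Camk2a, Ddn and Nrgn had P56-NPC means of 391, 323 and 129 FPKM. All 8 were lower in A-iSCs, with summed levels of 13.2 to 19.4 FPKM against 998 to 1234.1 FPKM. For Camk2a and Ddn, with means under 1 FPKM in A-iSCs, the filter fixed the direction. Among 10 tested genes of striatal projection neurons, 6 were lower, beside 30.9% over all genes. Ppp1r1b (DARPP-32) was among the lower genes, at 3.9 to 5.47 FPKM against 38.3 to 53.1 FPKM. The P56-NPC samples varied widely in Penk, or enkephalin, with 9.91, 16.4 and 2.71 FPKM against 0.121 to 0.639 FPKM. Rgs9 alone was higher, by 0.64 with an adjusted p of 0.0383, a call lost without A-iSCs sample 2 or 3 and without P56-NPC sample 1 or 3.

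Neuroblast genes moved in both directions. Of 14 members 4 were higher, 5 lower and 5 not called (median -0.38, and 0.11 with counted totals), shares near the 30.1% and 30.9% over all genes. Dcx, the microtubule protein of migrating neuroblasts, was at 2.87, 2.67 and 3.04 FPKM in A-iSCs and 3.21, 3.78 and 3.02 FPKM in P56-NPCs. The groups overlapped, and both lay far below the 88.1 FPKM of P0-NPCs. Sox4 and Cd24a were higher in A-iSCs, with means of 59.8 and 124 FPKM against 25.3 and 43.6 FPKM, as were the tubulin gene Tubb2b (233 to 242 against 147 to 190 FPKM) and Nrep (31.3 to 44.4 against 17.7 to 19.9 FPKM). The interneuron factors Dlx1, Sp8 and Sp9, which mark neuroblasts bound for the olfactory bulb, were lower, with Sp8 at 0.692 to 0.893 FPKM against 4.57 to 5.14 FPKM. Sp8 was tested only through P56-NPCs, which fixes its direction. Dlx2 (means of 6.52 and 9.71 FPKM) and Dlx5 (2.04 and 3.74 FPKM) overlapped between the groups and were not called. Stmn1, a microtubule regulator, was lower too (89.0 against 228 FPKM).

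Genes of cells at the ventricle wall were lower in A-iSCs. All 13 tested genes of ependymal motile cilia were lower (median -1.54), or 11 with counted totals, and Tmem212 differed most, at 2.29, 1.59 and 2.14 FPKM against 93.4, 82.3 and 114 FPKM. Some tested members, none of them named here, had means under 1 FPKM in A-iSCs, which fixes their direction. Foxj1, the master factor of motile cilia, was nearly as high in A-iSCs, with 39.9, 40.6 and 52.2 FPKM against 63.6, 56.2 and 66 FPKM. Its log2 difference of -0.48 was close to the scaling shift, with counted totals it was 0.06 and not called, and the call was lost without A-iSCs sample 1 or 2 or P56-NPC sample 1 or 3. Structural cilium genes such as Ccdc153 and Ak7 were at 3.56 and 1.2 FPKM in A-iSCs against 60.8 and 20.8 FPKM, whereas Rsph1 and Tekt1 differed less (14.3 and 7.77 against 43.9 and 14.7 FPKM), and Tekt1 was not called with counted totals. All 7 choroid plexus genes were lower (median -2.63), from Ttr to Otx2 at 2.21 to 3.01 FPKM against 6.79 to 7.77 FPKM. Ttr, Clic6 and some other members had means under 1 FPKM in A-iSCs, which fixes their direction. Folr1 and Otx2 reached 1 FPKM in both groups. The chloride channel gene Clic6 was at 0.0286 to 0.038 FPKM against 19.5 to 22.4 FPKM, and the folate receptor gene Folr1 at 0.916 to 1.58 FPKM against 9.82 to 15.8 FPKM. The core GTTGCCAT of the X-box that RFX factors bind was, on either strand, in the promoter window of 1 of 12 cilia genes with an entry, Tekt1, and in 1.35% of all promoter windows.

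Vessel and meningeal genes were low in both groups. Only 4 of 12 endothelial genes reached 1 FPKM in either group, and the defining genes Pecam1 and Cdh5 had means of 0.205 and 0.156 FPKM in A-iSCs and 0.501 and 0.243 FPKM in P56-NPCs. Cldn5, the tight junction claudin of brain endothelium, was at 0.175, 0.0 and 0.0 FPKM against 1.71 to 2.14 FPKM, and Itm2a and Ly6c1 differed by -0.98 and -0.37, calls that were lost with counted totals and, among others, without A-iSCs sample 2 or P56-NPC sample 3. Flt1, the receptor VEGFR1 that macrophages also carry, was at 0.853 to 1.57 FPKM against 0.189 to 0.207 FPKM. Of these genes Cldn5, Ly6c1 and Flt1 were tested only through the group where they were higher, which fixes their direction, as it does for Rgs5, Vtn and Anpep among 5 tested mural cell genes and for Col1a1, Dcn and Dpt among 6 tested fibroblast and meningeal genes. The pericyte gene Vtn was lower (mean 0.872 against 3.69 FPKM), Pdgfrb was called lower (-0.76), a call lost with counted totals, Notch3 overlapped, and Anpep was higher (1.45 to 3.41 against 0.0836 to 0.176 FPKM). Col1a1 and Ogn were higher, with 2.39 to 3.54 FPKM and 4.0 to 5.36 FPKM against 0.632 to 1.22 FPKM and 1.19 to 3.43 FPKM, while Col1a2 differed by -1.05 and Fbln1 by -0.41. Ogn lost its call without A-iSCs sample 1 or P56-NPC sample 1, and Fbln1 without any 1 P56-NPC sample and with counted totals. Dpt, a dermal and meningeal matrix gene, was at 3.31 FPKM in P56-NPC sample 3 alone, against 0.134 and 0.108 FPKM in samples 1 and 2. The haemoglobin genes Hbb-bs and Hbb-bt were at 92.0 and 26.7 FPKM in P56-NPCs, and at 0.0398 and 0.0 FPKM in A-iSCs.

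Astrocyte genes parted by their role. Among 17 genes of mature astrocytes 13 were lower in A-iSCs, 1 higher and 3 not called (median -1.79). The glutamate transporter gene Slc1a2 was at 14.7, 17.8 and 36.6 FPKM against 501, 552 and 505 FPKM, a log2 difference of -4.54 ± 0.31 (adjusted p = 1.86e-05). Gjb6, a gap junction connexin, was at 0.501, 1.2 and 1.27 FPKM against 105 to 124 FPKM, and S100b at 10.3 to 12 FPKM against 466 to 490 FPKM. No A-iSCs sample came near the tissue for these 3 genes. Gjb6 had a mean under 1 FPKM in A-iSCs, which fixes its direction. Glul, or glutamine synthetase, was at 190, 170 and 287 FPKM against 2069.9 to 2263.1 FPKM, and the aldolase gene Aldoc at 299, 439 and 480 FPKM against 1116.2 to 1254.4 FPKM. Aldh1l1, the folate enzyme widely used to mark astrocytes, was the member called higher, at 64.8, 76.4 and 70.7 FPKM against 42.5 to 57.0 FPKM, a difference of 0.53 that lost its call without P56-NPC sample 1. The water channel gene Aqp4 was at 69.3, 71.1 and 137 FPKM against 60.2 to 64.2 FPKM and was not called, though with counted totals it was called higher, by 1.05. Mlc1, a membrane protein of astrocyte endfeet, was at 187, 243 and 369 FPKM against 374 to 416 FPKM and was not called. A-iSCs sample 3 was the highest of the 3 for Slc1a2, Glul, Aldoc, Aqp4 and Gfap.

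All 15 tested genes of reactive astrocytes were higher in A-iSCs (median 3.21). Cd44, Timp1 and some other members had means under 1 FPKM in P56-NPCs, so the filter fixed their direction. Vim, Gfap and Serpina3n reached 1 FPKM in both groups. Vim, the intermediate filament of immature and reactive astrocytes, was at 1242.9, 1131 and 741 FPKM against 41.7, 36.0 and 46.6 FPKM (log2 difference 4.59 ± 0.21, adjusted p = 3.55e-06). Gfap, the astrocyte filament, was at 658, 769 and 1482.8 FPKM against 198 to 228 FPKM, a difference of 2.10 ± 0.29. Serpina3n, a secreted protease inhibitor that rises in injured brain, was at 179, 283 and 393 FPKM against 16.8 to 19.1 FPKM, and Cd44, the hyaluronan receptor, at 28.3 to 34.5 FPKM against 0.425 to 0.672 FPKM. AST already held 2186.3 FPKM of Vim and 105 FPKM of Cd44, but only 29.9 FPKM of Gfap and 8.78 FPKM of Serpina3n. Cd14 and Lgals3, which phagocytes also make, and C3 belong to more than 1 cell type, and the share of microglia in these levels was not tested.

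**Figure D5:**
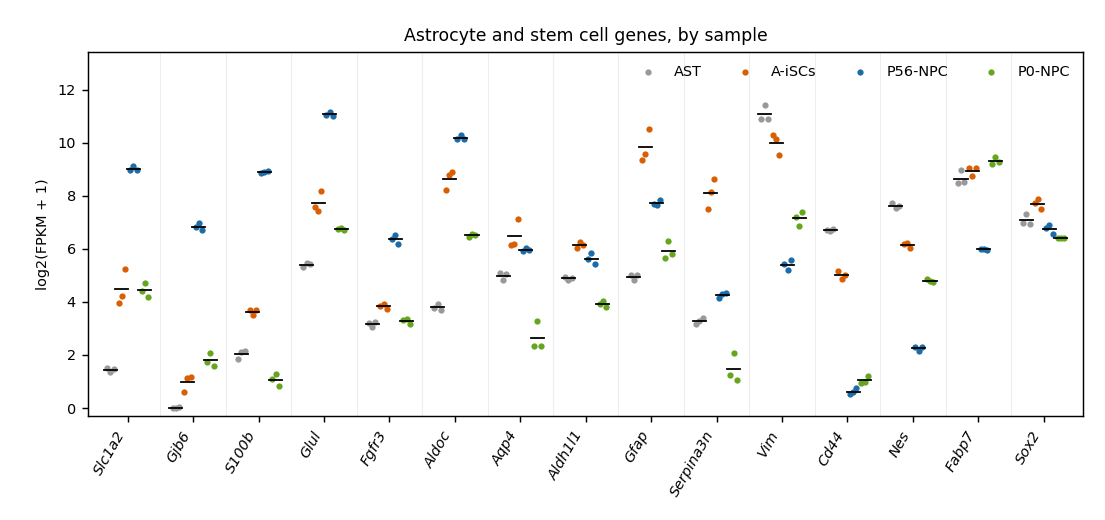
Levels of 15 astrocyte and stem cell genes as log2(FPKM + 1), with 3 samples and their mean bar for AST (grey), A-iSCs (orange), P56-NPCs (blue) and P0-NPCs (green). From Slc1a2 to Aldoc P56-NPCs lie above A-iSCs, Aqp4 and Aldh1l1 lie close together, and from Gfap to Sox2 A-iSCs lie above P56-NPCs.

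Neural stem cell genes differed in both directions. Of 14 members 6 were higher in A-iSCs, 4 lower and 4 not called, beside 30.1% higher and 30.9% lower over all genes, and the median was 0.09 beside 0.03. With counted totals 8 were higher, Sox9 and Rfx4 among them, and 4 lower (median 0.62). Nes, the intermediate filament nestin of neural progenitors, was at 72.2, 73.7 and 64.4 FPKM against 3.91, 3.48 and 3.9 FPKM, a log2 difference of 3.90 ± 0.10 (adjusted p = 3.15e-07). Fabp7, a fatty acid carrier of radial glia, was at 424 to 533 FPKM against 61.9 to 63.6 FPKM, and the matrix gene Tnc at 24.9 to 31.8 FPKM against 0.259 to 0.383 FPKM. Sox2, a transcription factor of neural stem cells for which the study stained, was at 210, 234 and 180 FPKM against 109, 119 and 94.0 FPKM, a difference of 0.95 ± 0.14 (adjusted p = 0.00107). Every A-iSCs sample was above every P56-NPC sample for these 4 genes, and AST held 135 FPKM of Sox2, 196 FPKM of Nes and 347 FPKM of Tnc. Pax6 and Prom1 were higher by 0.45 and 0.55, and the call of Pax6 was lost without P56-NPC sample 1. Thbs4, a thrombospondin of subependymal astrocytes, was lower, at 0.272 to 0.345 FPKM against 10.1 to 12.3 FPKM, and Hes5, a target of Notch, was at 5.64 to 9.16 FPKM against 15.5 to 24.3 FPKM. The glutamate transporter gene Slc1a3 was at 74.8, 93.2 and 205 FPKM against 349 to 374 FPKM, and the phosphatase gene Ptprz1 at 14.5 to 36.7 FPKM against 68.1 to 75.6 FPKM. Sox9, Rfx4, Nr2e1 and Vcam1 overlapped between the groups. Tnc and Thbs4 were tested only through the group where they were higher, which fixes their direction.

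Genes of the interferon response were higher in A-iSCs in 13 of 13 members (median 3.79). Ifit1, an antiviral RNA-binding protein, was at 75.7, 60.8 and 56.6 FPKM against 1.32, 0.54 and 2.72 FPKM (log2 difference 4.78 ± 0.30, adjusted p = 1.47e-05). Ifitm3, a membrane protein that blocks viral entry, was at 648, 514 and 305 FPKM against 25.8 to 45.3 FPKM, and Ifit3 at 169 to 226 FPKM against 10.4 to 16.8 FPKM. P56-NPC sample 3 was the highest of its group for Ifit1, Isg15, Bst2 and Ifitm3, still below every A-iSCs sample. All 11 genes of MHC class I presentation were higher (median 2.62). The light chain gene B2m was at 2481.7, 2136 and 1616.8 FPKM against 223 to 313 FPKM, and the heavy chain gene H2-D1 at 428 to 564 FPKM against 27.3 to 44.8 FPKM. Its relative H2-K1 was at 188 to 239 FPKM against 28.8 to 43.0 FPKM. H2 heavy chain genes are close copies of each other, so reads may be divided between them. Of 6 tested MHC class II genes none was called by limma, with 2 at an unadjusted p under 0.05. These were the peptide exchange genes H2-DMa (3.38 to 5.5 against 2.67 to 3.13 FPKM, adjusted p = 0.0651) and H2-DMb1 (3.4 to 5.25 against 2.47 to 3.68 FPKM, adjusted p = 0.0708), and both were called higher with counted totals. Cd74, the invariant chain, was at 5.58, 4.68 and 3.2 FPKM against 6.31, 3.45 and 18.5 FPKM, with P56-NPC sample 3 far above its group, as it was for H2-Eb1 (1.72, 0.833 and 7.9 FPKM, against 0.454 to 0.787 FPKM in A-iSCs). The microglial list above differed between the groups beside these lists, and its part in them was not tested.

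Complement and lysosome genes followed the same side. Of 7 tested complement genes outside C1q, 5 were higher, 1 lower and 1 not called (median 1.31), with C4b at 38.5, 56.8 and 40.4 FPKM against 14.5 to 15.1 FPKM and C3 at 13.3 to 22.8 FPKM against 1.9 to 2.74 FPKM. Serping1, the C1 inhibitor, was at 12.7 to 17.2 FPKM against 1.66 to 2.72 FPKM. Cd59a was the lower gene, with a difference of -0.48 whose call was lost with counted totals and without either of A-iSCs samples 1 and 2 or P56-NPC samples 1 and 3. Of 12 lysosome genes 11 were higher and 1 not called (median 2.0). The protease gene Ctsd was at 2392.1, 1838.7 and 1670.8 FPKM against 190 to 217 FPKM, Ctsb at 827 to 1055.4 FPKM against 102 to 107 FPKM, and Grn, or progranulin, at 204 to 327 FPKM against 29.5 to 31.2 FPKM. Psap, the sphingolipid activator precursor, was high in both groups (1057.6 and 781 FPKM) and lost its call without any 1 P56-NPC sample.

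Most tested genes of contractile cells and of the matrix were higher in A-iSCs than in P56-NPCs. The contractile list summed to 264 to 328 FPKM in A-iSCs and 83.7 to 121 FPKM in P56-NPCs, beside 3769.2 to 4402.8 FPKM in AST. Of 13 tested contractile genes 10 were higher and 3 not called (median 1.34). Cnn2, an actin-binding calponin, was at 26.1, 26.9 and 23.3 FPKM against 3.21, 3.17 and 3.36 FPKM (log2 difference 2.64 ± 0.09, adjusted p = 1.15e-06), while AST held 345 FPKM. Acta2, smooth muscle actin, was at 58.6, 40.9 and 25.5 FPKM against 5.22, 3.92 and 14.1 FPKM, beside 1848.1 FPKM in AST. The actin crosslinker gene Flna was at 42.1 to 52.8 FPKM against 9.15 to 10.2 FPKM, and the tropomyosin gene Tpm4 at 38.2 to 44.4 FPKM against 14.8 to 15.9 FPKM. Myl9 was at 27.0 to 50.9 FPKM against 11.0 to 25.2 FPKM, and its call was lost without P56-NPC sample 2. Of 13 tested matrix genes 11 were higher and 2 lower (median 1.26), while the matrix list summed to 451 to 571 FPKM against 598 to 960 FPKM. Fn1 was at 60.1, 58.7 and 80.1 FPKM against 0.375 to 0.587 FPKM, and Thbs1 at 15.3 to 22.9 FPKM against 0.39 to 0.64 FPKM. Loxl1, a crosslinker of elastic fibres, was at 16.3 to 22.8 FPKM against 2.12 to 2.98 FPKM. The lower genes were Sparc, a collagen-binding protein that astrocytes secrete, at 284, 301 and 401 FPKM against 575 to 941 FPKM, and Lamb1, a laminin chain, at 0.308 to 0.377 FPKM against 1.83 to 2.07 FPKM. Fn1, Thbs1, Lamb1 and some other members were tested only through the group where they were higher, which fixes their direction. Among 7 tested targets of YAP and TEAD, Ccn1, Ccn2 and Ajuba were higher, with Ccn2 at 45.7, 47.2 and 26.1 FPKM against 0.436 to 1.34 FPKM, and Crim1 was called lower (-0.80), a call lost with counted totals. Axl, a receptor of dying cells, overlapped between the groups (37.9 to 47.6 against 32.7 to 40.7 FPKM). With counted totals 6 of the 7 were higher and none lower, with Axl, Amotl2 and Lats2 called at 0.76, 0.87 and 0.41.

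Serum response factor binds the CArG box in many contractile genes. Searched on both strands in promoter windows from 250 bases before to 50 after the start (RefSeq, GRCm38.p6), the box was in 3 of 13 contractile genes with an entry, Myl9, Cnn2 and Vcl, and in 1.63% of all 32851 windows. The 250 bases before the start of 2 of the members called higher are given 5′ to 3′ with the box in capitals. Cnn2 lies at chr10:79988350-79988599 on the plus strand and Myl9 at chr2:156775214-156775463 on the plus strand.
Cnn2: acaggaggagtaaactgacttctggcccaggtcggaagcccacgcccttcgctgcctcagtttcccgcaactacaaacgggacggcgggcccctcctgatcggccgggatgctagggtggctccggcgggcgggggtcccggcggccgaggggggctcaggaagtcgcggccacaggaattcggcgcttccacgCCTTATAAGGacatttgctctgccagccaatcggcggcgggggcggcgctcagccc
Myl9: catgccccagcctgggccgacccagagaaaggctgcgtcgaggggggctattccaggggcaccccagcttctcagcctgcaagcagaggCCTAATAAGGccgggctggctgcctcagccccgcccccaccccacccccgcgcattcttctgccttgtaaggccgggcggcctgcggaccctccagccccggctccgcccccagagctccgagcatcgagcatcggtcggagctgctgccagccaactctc
A match is a string of letters and not evidence of binding, and Vcl, the third gene with the box, overlapped between the groups (2.48 to 7.07 against 2.47 to 3.32 FPKM).

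Genes of mitosis were low in both groups, and most tested genes of mitosis and of DNA replication were higher in A-iSCs. Of 14 tested mitosis genes 11 were higher and 3 not called (median 0.67). Cdk1 and some other members had means under 1 FPKM in P56-NPCs, which fixes their direction. Mki67, the proliferation antigen, was at 3.91, 3.69 and 4.1 FPKM against 1.48, 1.75 and 1.36 FPKM (log2 difference 0.96 ± 0.10, adjusted p = 0.000174), beside 15.1 FPKM in AST and 10.3 FPKM in P0-NPCs. Cdk1, the kinase that starts mitosis, was at 3.8, 3.79 and 3.27 FPKM against 0.701, 1.14 and 0.861 FPKM, and Cdc20, an activator of the anaphase-promoting complex, at 5.1 to 6.6 FPKM against 2.28 to 3.77 FPKM. The groups did not overlap for these 3 genes, nor for the topoisomerase gene Top2a (4.21 to 6.23 against 1.94 to 3.26 FPKM). Of 14 tested replication genes 9 were higher and 5 not called (median 0.56), with the sliding clamp gene Pcna at 51.8 to 58.5 FPKM against 33.8 to 37.6 FPKM and the helicase gene Mcm6 at 8.16 to 11.0 FPKM against 3.38 to 3.9 FPKM. Mcm7 was at 10.4 to 12.3 FPKM against 7.78 to 8.47 FPKM, and Mcm4 overlapped (6.15 to 9.34 against 7.02 to 8.07 FPKM).

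The cell cycle homology region (CHR), with the letters TTTGAA, is bound by the DREAM and MuvB complexes in genes of late cell cycle. These letters were found on either strand in the window of 10 of the 13 mitosis genes with an entry (76.9%) and in 17.9% of all windows, or 20.2% of all genes with a window. Of the genes with a match, Bub1b and Aurka were not called with the deposited scaling, and Kif11 and Cenpf were not tested. A match is not evidence of binding, and its relation to the differences was not tested. Aurkb, Kif20a and Tpx2 had no entry. The 250 bases before the start of 3 genes called higher are given with each match in capitals. Cdk1 lies at chr10:69352913-69353162, Ccnb2 at chr9:70421555-70421804 and Cdc20 at chr4:118437344-118437593, all on the minus strand.
Cdk1: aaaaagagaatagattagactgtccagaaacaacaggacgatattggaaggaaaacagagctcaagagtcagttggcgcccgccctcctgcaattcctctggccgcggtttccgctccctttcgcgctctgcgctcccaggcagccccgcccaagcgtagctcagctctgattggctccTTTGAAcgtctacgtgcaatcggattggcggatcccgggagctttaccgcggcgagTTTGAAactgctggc
Ccnb2: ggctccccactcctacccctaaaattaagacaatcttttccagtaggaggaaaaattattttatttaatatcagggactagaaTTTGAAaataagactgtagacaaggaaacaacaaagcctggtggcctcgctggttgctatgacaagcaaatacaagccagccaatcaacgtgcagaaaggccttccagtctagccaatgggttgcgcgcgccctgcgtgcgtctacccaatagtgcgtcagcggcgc
Cdc20: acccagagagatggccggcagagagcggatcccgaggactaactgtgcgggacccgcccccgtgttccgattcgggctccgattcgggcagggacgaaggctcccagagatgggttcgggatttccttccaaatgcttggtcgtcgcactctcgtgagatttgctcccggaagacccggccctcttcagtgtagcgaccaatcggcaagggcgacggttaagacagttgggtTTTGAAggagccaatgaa
In Cdk1 the matches begin at bases -71 and -15 from the start, in Ccnb2 at -167 and in Cdc20 at -18, and Ccnb2 holds another match at base 5, past the printed stretch. Cdk1 differed by 1.29 ± 0.12, Ccnb2 by 0.66 ± 0.16 and Cdc20 by 0.73 ± 0.17 on the log2 scale.

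Several metabolic lists depended on the scaling. All 13 protein-coding genes of the mitochondrial genome had lower means in A-iSCs and 12 were called (median -2.47), or 11 with counted totals, where mt-Nd5 lost its call. Cytochrome oxidase gene mt-Co1 was at 16299.2, 12817.3 and 7896.8 FPKM against 46056.3 to 54740.3 FPKM, mt-Cytb at 3865.4 to 10068.9 FPKM against 26054.2 to 29628.5 FPKM, mt-Nd1 at 2775.8 to 7125.6 FPKM against 24800.2 to 27473.5 FPKM, and mt-Atp6 at 54.5 to 161 FPKM against 819 to 1227.4 FPKM. Without a filter on low values, mt-Co1, mt-Cytb and mt-Nd1 were no longer called. The 2 mitochondrial ribosomal RNAs, looked at after their values were seen, differed more, with mt-Rnr1 at 618, 431 and 227 FPKM against 16682.3 to 18214.4 FPKM (log2 difference -5.45 ± 0.35). They took 0.0597% to 0.148% of the fragments in A-iSCs and 3.07% to 3.39% in P56-NPCs. Of 14 nuclear genes of the respiratory chain 10 were lower, 1 higher and 3 not called (median -0.64), but with counted totals 3 were lower and 2 higher. Cox4i1 was lower under both, at 216 to 309 FPKM against 586 to 634 FPKM, whereas Atp5b and Sdha, with differences of -0.69 and -0.99, lost their calls with counted totals. Sdhb was the gene called higher, at 53.1 to 71.6 FPKM against 45.0 to 47.3 FPKM, but not without any 1 of the other samples than A-iSCs sample 3. Cholesterol synthesis genes went the same way, with 11 of 17 lower and none higher (median -0.49), but 5 higher and 3 lower with counted totals. Sc5d, a late enzyme of the pathway, and Insig1, its feedback regulator, were lower under both scalings, with differences of -1.26 and -1.33. Hmgcs1 (-0.40) was called lower with the deposited scaling and not with counted totals, and Cyp51 (-0.30) was called higher, by 0.24, with counted totals. Both calls were also lost without A-iSCs sample 2 or any 1 P56-NPC sample.

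Glycolytic genes were higher in 9 of 14 members (median 0.56), and in 13 of 14 with counted totals. Ldha, lactate dehydrogenase A, was at 148, 201 and 203 FPKM against 39.2, 40.9 and 42.1 FPKM (log2 difference 2.13 ± 0.15, adjusted p = 1.96e-05), Hk2 at 8.54 to 9.04 FPKM against 2.07 to 2.38 FPKM, and the lactate exporter gene Slc16a3 at 6.27 to 8.77 FPKM against 0.644 to 0.932 FPKM. Pkm and Pgk1 were higher by 0.52 and 0.60, and Aldoa overlapped, with 415, 425 and 233 FPKM against 246 to 257 FPKM, but was called higher, by 1.01, with counted totals. Slc2a1, the glucose transporter, was the member called lower (-0.32), and it was not called with counted totals, without A-iSCs sample 1 or without any 1 P56-NPC sample. Pgk1 lost its call without A-iSCs sample 2 or any 1 P56-NPC sample. Gapdh was at 53.9, 70.8 and 1.99 FPKM against 1.77, 1.49 and 1.47 FPKM. Such a spread among 3 samples of 1 group for a gene that all cells use, and its many processed copies in the mouse genome, leave its value uncertain, and it lost its call without any 1 of the samples other than A-iSCs sample 3. Hypoxia genes gave 5 higher, 2 lower and 2 not called (median 0.52), beside 30.1% higher and 30.9% lower over all genes. Vegfa was at 42.9, 73.7 and 41.2 FPKM against 21.8 to 24.3 FPKM. Ndrg1, which oligodendrocytes and Schwann cells also express, was lower (6.44 against 65.5 FPKM), as was Car9, a carbonic anhydrase (2.05 to 2.72 against 4.95 to 5.8 FPKM). Bnip3, a mitophagy receptor, was higher by 0.52, a call lost without A-iSCs sample 2 or any 1 P56-NPC sample.

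Stress genes were mostly higher. Of 12 genes of endoplasmic reticulum stress 8 were higher, 1 lower and 3 not called (median 0.98), with the chaperone gene Hspa5 at 162 to 203 FPKM against 52.5 to 63.8 FPKM. Pdia4 and Sesn2 were higher by 1.55 and 2.13, Hsp90b1 was not called (77.4 to 101 against 70.3 to 70.6 FPKM), and Herpud1 was lower (-0.77), a call lost with counted totals. Hmox1, haem oxygenase 1, was at 297, 251 and 155 FPKM against 6.48 to 8.43 FPKM (log2 difference 4.76 ± 0.24, adjusted p = 4.92e-06), and in its list 7 of 12 genes were higher and 5 not called (median 1.13). Prdx1, a peroxidase, was at 191 to 216 FPKM against 96.5 to 107 FPKM. The metallothionein genes Mt1, Mt2 and Mt3 overlapped between the groups, with Mt1 at 1621.6, 1481.3 and 671 FPKM against 1076.1 to 1317 FPKM. Without A-iSCs sample 3, Mt1 was called higher, by 0.40. Immediate early genes went both ways, with 6 of 14 higher and 5 lower (median 0.03, as over all genes), the lower share being near the 30.9% of all genes, and with counted totals 7 were higher and 2 lower. Fos and Atf3 were higher, with means of 116 and 30.0 FPKM against 48.4 and 4.91 FPKM, while Arc and Egr3, which neurons induce with activity, were lower (1.93 and 0.72 against 16.3 and 6.08 FPKM). Ier3 and Junb were higher too, by 3.45 and 1.45, and Jun overlapped (51.8 to 81.1 against 68.3 to 79.0 FPKM). Fosb, Jund and Nr4a1 (-1.02, -0.42 and -0.83) were called lower with the deposited scaling and not with counted totals, and Fosb not without A-iSCs sample 2 or P56-NPC sample 1 or 3.

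Signalling lists held members that differed in both directions, and their counts depended on the scaling. Among 12 receptors for growth factors of glia 5 were higher and 6 lower (median -0.30), and with counted totals 6 were higher and 4 lower (median 0.18). Over all genes 30.1% were higher and 30.9% lower, or 54.3% and 20% with counted totals. Met, the receptor of hepatocyte growth factor, was at 5.54, 6.49 and 8.86 FPKM against 0.138 to 0.372 FPKM, whereas Fgfr3 was at 12.4 to 14.1 FPKM against 71.9 to 92.0 FPKM and Erbb3, a neuregulin receptor of the oligodendrocyte line, at 0.28 to 0.688 FPKM against 12.2 to 13.2 FPKM. Cntfr differed by -2.61 and Ntrk2, the neurotrophin receptor, by -1.06, the latter not with counted totals and not without any 1 of the samples other than A-iSCs sample 3. Fgfr1, Erbb2, Igf1r and Il6st were higher by 0.79, 1.33, 0.46 and 1.08, the last not without P56-NPC sample 3. Egfr overlapped (means of 3.94 and 3.55 FPKM). Of 14 genes of the Notch, Hes and Id list 6 were higher, 3 lower and 5 not called (median 0.45), beside 30.1% higher and 30.9% lower over all genes. With counted totals 11 were higher and 3 lower (median 0.91), beside 54.3% and 20% over all genes. Id1 and Id3, inhibitors of basic helix-loop-helix factors that BMP induces, were at 228, 190 and 130 FPKM against 13.7 to 14.5 FPKM and at 180 to 249 FPKM against 16.6 to 25.2 FPKM. Their relative Id4 was lower, at 37.7 to 50.2 FPKM against 97.3 to 110 FPKM, and AST held 336, 279 and 37.4 FPKM of Id1, Id3 and Id4. Id2 differed by 0.88 and Hey2 by -0.85. Hes1 overlapped between the groups (6.96 to 15.5 against 7.37 to 7.84 FPKM) and was called higher, by 0.93, with counted totals.

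Forebrain regional factors were lower in 7 of 13 tested members, higher in 2 and not called in 4 (median -0.40), and with counted totals 4 were lower and 3 higher (median -0.03). The shares over all genes were 30.9% lower and 30.1% higher, or 20% and 54.3% with counted totals. Zic1, a factor of septal and medial tissue, was at 4.73, 5.31 and 4.7 FPKM against 42.9, 42.4 and 41.7 FPKM (log2 difference -2.87 ± 0.09, adjusted p = 6.65e-07), and Lhx2 at 13.4 to 16.3 FPKM against 34.0 to 39.0 FPKM. Otx1 was higher, at 3.22 to 5.37 FPKM against 0.963 to 1.47 FPKM. Nkx2-1 and Six3 differed by -0.36 and -0.26 only, and both calls were lost with counted totals and without any 1 sample, save for Six3 without A-iSCs sample 3. Of 7 tested imprinted genes H19 and Mest were higher, and Cdkn1c, Peg3 and Ndn were lower, of which Peg3 and Ndn were not called with counted totals. So few genes cannot be told apart from the 30.1% higher and 30.9% lower over all genes. Xist, the RNA of the inactive X chromosome, was at 1.16, 0.865 and 1.07 FPKM in A-iSCs and at 0.00642 to 0.0174 FPKM in P56-NPCs, while the Y-linked gene Ddx3y was at 9.78 to 16.2 FPKM and 14.5 to 16.0 FPKM. The Y-linked Eif2s3y was higher in A-iSCs (13.1 to 19.4 against 10.5 to 12.6 FPKM), though not without any 1 of the samples other than A-iSCs sample 3, and Uty was not called (1.89 to 3.57 against 1.44 to 1.87 FPKM).

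Levels that differed little were also sought. In 2663 genes, or 17.7% of those tested, the 95% interval of the difference lay within 0.5 of 0 on the log2 scale. The count was 1512 without P56-NPC sample 1, 1741 without sample 2, 1747 without sample 3, 1563 by limma-voom and 1627 with a pseudocount of 0.1. A narrow interval can still exclude 0, and 69 of them were also called. Among the 10 highest protein-coding genes with such an interval were several genes of cytosolic ribosomal proteins. Rps3a1 was at 730, 701 and 685 FPKM against 731, 736 and 810 FPKM, and Rpl41 at 528 to 616 FPKM against 513 to 633 FPKM. Other genes were Pea15a, an astrocyte phosphoprotein (493 and 545 FPKM), Ptma (490 and 470 FPKM), the chaperone gene Hsp90ab1 (419 and 462 FPKM) and the lysosomal membrane gene Lamp1 (417 and 366 FPKM). Further ribosomal protein genes were Rpl4, Rps6 and Rpl23a. The word like holds for the deposited scaling, since with counted totals Lamp1 was called higher, by 0.74. Among the cell type lists, Dcx and Csf1r were not called, but a p over the threshold does not show equal levels.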

How the data were processed

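RNA from A-iSCs and P56-NPCs (3 samples each) was sequenced after NEBNext Ultra library preparation, and the authors deposited gene-level FPKM values with gene lengths. Bowtie 0.12.2 and the mm8 build stand in the submitters' processing notes, but 54985 of the 55240 gene IDs shared with GENCODE M21 had their GRCm38 positions. The counting tool and its strand setting are not given in the sources used here. Fragments were recovered from FPKM times length, whole to within 0.01 fragments, and they give the depth, with limits of 3 fragments that cover counting error only. Genes with a mean of at least 1 FPKM in either group were tested as log2(FPKM + 1) in limma 3.58.1 (R 4.3.3) with a mean-variance trend, and p-values were adjusted by Benjamini and Hochberg over 15044 genes at 0.05. In data simulated on 15044 genes, 66 of 100 genes changed by 1 log2 unit and 97 of 100 changed by 2 were called, and 8.94% of the calls were false. The simulation gave every gene the same dispersion and changed far fewer genes than were called here. It also held no sample that stood apart as A-iSCs sample 3 did, so these rates may not hold for the data. "Counted totals" means fragments per kilobase scaled to the counted fragments of each sample. Alternatives were pseudocount, filter, scaling, centring, model, threshold, replicate block and each sample left out. The members and the 38 lists were chosen with earlier results of these data known. Named genes were the 12 largest differences per direction above 20 FPKM, per list the 3 highest, the largest difference and calls against the majority, the 10 highest at a like level, and other list members, apart from a few withheld genes that are not reported here. The dendritic, haemoglobin, mitochondrial ribosomal and lung genes and Actb were added after their values were seen. Promoters came from RefSeq (GRCm38.p6). Python 3.11.15 was used for the summaries.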

Additional observations from a re-analysis of the deposited data

How the results depend on the processing

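The 23 genes with the largest differences named above kept their direction and their call under every alternative in which they were tested. The counts of calls depended on the scaling, the filter and the size threshold. By counted totals 8170 genes were higher, 3008 lower and 1416 at a like level, and by counted totals of nuclear genes 7000 were higher, 3514 lower and 1711 alike. With a mean of at least 5 FPKM, which tests 8971 genes, 2969 were higher, 2952 lower and 1509 alike, and beyond 1 log2 unit 1473 were higher and 2506 lower. Like-level genes numbered 1563 by limma-voom on the recovered fragments, 1627 with a pseudocount of 0.1 and 15305 without a filter, which adds genes near 0. Leaving out 1 sample gave 3569 to 5592 higher, 4035 to 5553 lower and 1512 to 3608 like-level genes. The like-level count fell by more than 1.5 times without P56-NPC replicate 1 (1512), 2 (1741) or 3 (1747). The replicate numbers did not pair the samples: same-numbered samples deviated with correlations of -0.03, -0.09 and -0.14, and with the replicate number as a block 4081 genes were higher and 4354 lower. Turned signs of named genes are listed only where the gene was called in the main test or in the alternative concerned. Other named genes, such as Mcm4 and Rfx4 by nuclear totals, turned sign without a call in either. By counted totals signs turned for Cd59a (0.00), Cyp51 (0.24), Fbln1 (0.07), Foxj1 (0.06), Hmgcs1 (0.15), Hsp90ab1 (0.42), Jund (0.05), Lhfpl3 (0.23), Mcm4 (0.44), Pea15a (0.41), Rfx4 (0.40), Rps3a1 (0.45), Six3 (0.19), Slc2a1 (0.23) and Vcan (0.03). By nuclear totals, signs of such called genes turned for Cyp51 (0.06), Lhfpl3 (0.05), Six3 (0.03) and Slc2a1 (0.04), and without A-iSCs replicate 3 for Mt1 (0.40, with -0.24 without replicate 1 as the other end). The cause of these changes was not tested beyond the shift that each scaling adds. Depth limits statements on genes under 0.112 to 0.187 FPKM for a transcript of 1 kilobase, the level of 3 fragments, and under less for longer ones.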

Other observations

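Genes of the airway and alveolar epithelium were highest in 1 A-iSCs sample and were looked at after their values were seen. Scgb1a1, the club cell secretoglobin, was at 71.5, 0.707 and 0.392 FPKM in A-iSCs samples 1, 2 and 3 and had no fragment in any P56-NPC sample. Sftpc, a surfactant protein gene, was at 6.53, 0.854 and 0.0721 FPKM in A-iSCs and at 0.235 to 0.422 FPKM in P56-NPCs. Neither was called. Of 8 such genes, 2 reached 1 FPKM in either group, and their source was not tested.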
